A study of Mus musculus with 8 samples.

Results

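Vascular endothelial growth factor (VEGF) ligands and the VEGF receptors of blood vessels were examined as a set of 6 genes in cells sorted from tumor-bearing mouse lungs by the signal of a protease-activated probe. The members were taken by name from the deposited table of read counts, in which genes are listed by Entrez Gene identifier. They were the ligand genes Vegfa (22339), Vegfb (22340), Vegfd (14205) and Pgf (18654) and the receptor genes Flt1 (14254) and Kdr (16542). All 6 of the 6 members were found among the 27179 genes of the table, and all 6 were among the 15583 genes with enough reads to be tested.

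RNA was sequenced from 4 QZ1-hi libraries, whose condition is given as QZ+ by the labels, and from 4 QZ1-lo libraries, given as QZ-. Both populations came from Eml4-Alk female C57BL/6 mice (C57BL/6J in the study's methods) aged 18 to 22 weeks, in which an adenovirus delivered to the airways carried Cas9 and guide RNAs that join Eml4 to Alk, 11 to 12 weeks before the cells were collected. Every mouse received 4.5 nmol of QZ1-(PEG2K) intravenously, a quenched probe that gains Cy5 fluorescence when proteases cut its S1 linker. Live lung cells negative for CD45 and CD11b, markers of blood-derived cells, were sorted by Cy5 into both populations, so all groups carried tumors and probe and neither is a healthy or an untreated control. The purity of the sorted cells was not assessed, each population is a mixture of cell types, and no label says which libraries of both populations share a mouse. Libraries are therefore numbered 1 to 4 within each population without pairing, and where nothing names separate mice, the p-values measure only the spread between these libraries.

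VEGF ligands are secreted proteins that bind tyrosine kinase receptors on endothelial cells. Kdr (VEGFR2) carries most of the growth and permeability signal of Vegfa, while Flt1 (VEGFR1) binds Vegfa tightly, signals weakly and also exists as a soluble form that holds ligand back. Pgf and Vegfb bind Flt1, and Vegfd and its relative Vegfc bind Flt4 (VEGFR3), the receptor of lymphatic vessels. In lung, alveolar type 1 cells are a known source of Vegfa, and capillary endothelium carries the receptors.

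On mm10, the build named in the submitters' processing notes, and with GENCODE M21 as annotation, Flt1 lies at chr5:147561604-147726011 and Kdr at chr5:75932827-75978458, both on the minus strand. Vegfa lies at chr17:46016993-46032369, Vegfb at chr19:6982473-6987651 and Pgf at chr12:85166635-85177790 on the minus strand, and Vegfd at chrX:164373378-164402650 on the plus strand. In that annotation none of the 6 members shares exonic bases with another gene. Counts were summed over each gene, and the soluble and membrane forms of Flt1 were not separated.

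The promoters of both receptor genes are shown because both genes were higher in QZ1-hi and both are known targets of ETS transcription factors, a family that includes Erg and Fli1. The 250 bases before each start are given 5′ to 3′ from RefSeq on GRCm38.p6, at chr5:147726012-147726261 (minus strand) for Flt1 and at chr5:75978456-75978705 (minus strand) for Kdr. Capitals mark the ETS core, GGAA or its reverse complement TTCC.
Flt1: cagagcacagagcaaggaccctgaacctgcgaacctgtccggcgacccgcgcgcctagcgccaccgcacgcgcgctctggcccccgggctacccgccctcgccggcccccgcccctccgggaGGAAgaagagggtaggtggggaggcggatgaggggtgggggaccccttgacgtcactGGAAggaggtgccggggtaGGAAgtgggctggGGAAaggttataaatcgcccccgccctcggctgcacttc
Kdr: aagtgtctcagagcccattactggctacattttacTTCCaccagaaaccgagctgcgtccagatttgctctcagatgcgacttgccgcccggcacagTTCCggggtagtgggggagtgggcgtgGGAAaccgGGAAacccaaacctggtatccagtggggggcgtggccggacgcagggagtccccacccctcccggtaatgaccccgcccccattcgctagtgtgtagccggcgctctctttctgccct
Each receptor promoter held 4 ETS cores. Of 32851 mouse promoters of the same length, 93.4% held at least 1 and the median was 3, so the presence of the core does not set these promoters apart. The GC box GGGCGG occurred 3 times in Flt1 and 2 times in Kdr, against 32.7% of promoters with at least 1. TATAAA was found once in Flt1 and not in Kdr, against 12.4% of promoters, and the hypoxia response core ACGTG was in neither window, against 16.6%. All motifs were searched on both strands, and a match is a description of letters, not of a bound site.

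Each library held 18380918 to 26847938 counts in total. Levels are given as CPM, counts scaled to a common library size by the trimmed mean of M values (TMM), in which 3 counts were worth 0.0894 to 0.179 CPM, and such floors cover counting error only. Mitochondrial and ribosomal RNA genes took up 44.0 to 65.8% of the counts in QZ1-hi and 34.3 to 53.5% in QZ1-lo. Across genes, log2 CPM correlated at 0.887 to 0.940 between libraries of one population and at 0.782 to 0.866 between populations. Summed CPM of 5 blood cell markers, which the sort should deplete, spanned 211 to 453 in QZ1-hi and 195 to 350 in QZ1-lo, and none of the 5 markers was at 0. Of 4 platelet markers, 3 were higher in QZ1-hi (17.2 to 35.2 CPM summed, against 3.79 to 8.87), and the 4 red blood cell markers, none called, summed to 131 to 1006 CPM in QZ1-hi and 282 to 3097 CPM in QZ1-lo.

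Of the 6 members, 4 were higher in QZ1-hi by edgeR's quasi-likelihood test at an adjusted p under 0.05, both receptors and the ligands Vegfd and Pgf. Among all genes tested, 9.88% were higher and 8.21% were lower by the same test. No member was called lower, and none was lower at an unadjusted p under 0.05 in edgeR, in DESeq2 or in limma with all 8 libraries and the main scaling of each. For 3 members (Vegfd, Flt1 and Kdr) every QZ1-hi library lay above every QZ1-lo library, a pattern that 11.9% of the genes tested showed. The most abundant ligand, Vegfa, did not pass the test. In bulk RNA a gene can be higher or lower because more or fewer cells of a type are present. It can also differ because each cell holds more or less of its RNA. These cannot be told apart here for any member.

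**Figure D1:**
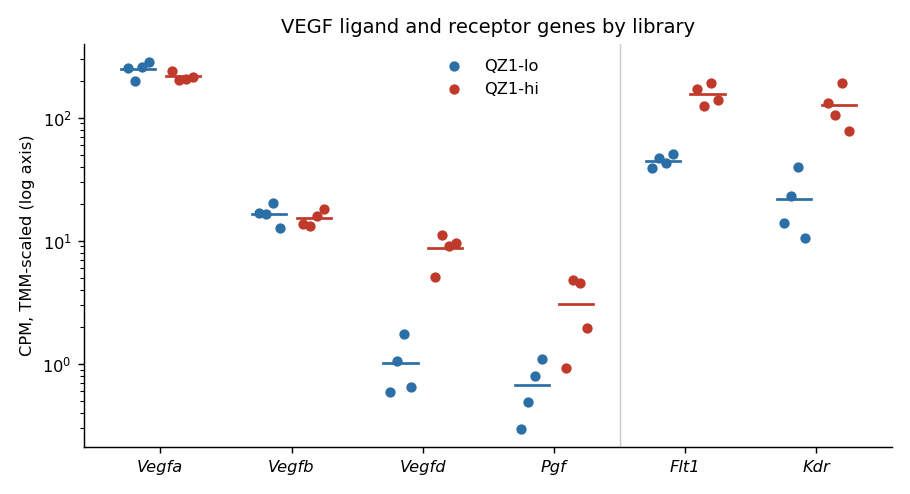
TMM-scaled CPM on a log axis for the 6 members, with 1 point per library (4 QZ1-hi and 4 QZ1-lo) and a bar at each mean. The populations are separated for Vegfd, Flt1 and Kdr, while Vegfa (204 to 241 CPM in QZ1-hi, 200 to 282 CPM in QZ1-lo) and Vegfb overlap.

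Vegfa, the main growth factor for blood vessels, was the member with the highest level in every library. QZ1-hi libraries 1 to 4 held 241, 204, 208 and 214 CPM of Vegfa, and QZ1-lo libraries 1 to 4 held 255, 200, 259 and 282 CPM. The lowest value of all 8 was in QZ1-lo library 2, so the ranges overlapped, and counts between 3598 and 8545 per library left little counting error. The mean of Vegfa was 217 ± 16.6 CPM in QZ1-hi and 249 ± 34.8 CPM in QZ1-lo (SD, n = 4 each). Its log2 fold change, given as QZ1-hi relative to QZ1-lo here and for every gene that follows, was -0.20 (SE 0.13, 95% interval -0.48 to 0.08, adjusted p = 0.354). A decrease of up to 0.48 log2 units or a slight increase is therefore within the interval.

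Vegfb, a Flt1 ligand linked to fatty acid handling in heart and muscle, was likewise not called. It was measured at 13.8, 13.1, 15.96 and 18.2 CPM in the QZ1-hi libraries and at 16.8, 16.5, 20.1 and 12.8 CPM in the QZ1-lo libraries. QZ1-lo held both the highest and the lowest library. The log2 fold change of Vegfb was -0.12 (SE 0.18, 95% interval -0.52 to 0.28, adjusted p = 0.735).

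Vegfd, a ligand of the lymphatic receptor Flt4 with known expression in lung, had the largest fold change of the members, at rank 295 of 15583 genes tested from the most positive down. Its level was 5.13, 11.1, 9.14 and 9.65 CPM in QZ1-hi libraries 1 to 4 and 0.596, 1.06, 1.74 and 0.655 CPM in QZ1-lo libraries 1 to 4. Even the lowest QZ1-hi library, number 1, was above the highest QZ1-lo library, number 3, and the counts of 121 to 225 against 16 to 48 exceeded the floor of 3 counts. Vegfd averaged 8.76 CPM with an SD of 2.56 over the 4 QZ1-hi libraries, compared with 1.01 CPM and an SD of 0.525 over the 4 QZ1-lo libraries. The log2 fold change was 3.11 (SE 0.41, 95% interval 2.21 to 4.01, adjusted p = 5.77e-04), an 8.63-fold higher level.

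Vegfd rose beside markers of several cell types, among them endothelium, lymphatics, mesothelium and fibroblasts, the connective tissue cells that make collagen. All 3 mesothelial markers were higher (2 of 3 by DESeq2), with summed CPM of 29.7 to 208 in QZ1-hi and 5.44 to 27.5 in QZ1-lo. The value of 208 was in QZ1-hi library 2, and no other QZ1-hi library exceeded 55.7. Of 6 fibroblast markers, 5 were higher in QZ1-hi, and the CPM summed over all 6 spanned 921 to 1850 in QZ1-hi and 26.6 to 218 in QZ1-lo. The uncalled marker, Tcf21, was at 0 CPM in QZ1-lo libraries 1 and 4. In those libraries the mean log2 CPM of the markers therefore rests partly on the prior count of 0.5. Set against the mean log2 CPM of these markers in the same library, Vegfd stood at -3.24 ± 0.547 in QZ1-hi and at -2.49 ± 1.11 in QZ1-lo (SD, n = 4 each). The difference of -0.752 log2 units did not pass (two-sided exact permutation p = 0.314, adjusted over 6 such ratios 0.314). The part of fibroblasts or of the other cell types in the higher Vegfd level was not tested, and this ratio does not measure it.

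Pgf, placental growth factor, which binds Flt1 and not Kdr, was the least abundant member and the one called least securely. QZ1-hi libraries 1 to 4 had 0.932, 4.79, 4.57 and 1.97 CPM of Pgf, from 22, 97, 79 and 33 counts. QZ1-lo libraries 1 to 4 had 0.298, 0.488, 0.796 and 1.11 CPM, from 10, 12, 22 and 27 counts. QZ1-hi library 1 lay below QZ1-lo library 4, and the other 3 QZ1-hi libraries were above all of QZ1-lo. The log2 fold change of Pgf was 2.19 (SE 0.64, 95% interval 0.79 to 3.59, adjusted p = 0.0349), a 4.55-fold difference. The call was lost when any of 5 libraries was left out (QZ1-hi 2 or 3, QZ1-lo 1, 2 or 3), with adjusted p from 0.0567 to 0.115 in those fits, and under limma (adjusted p = 0.0791).

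Flt1, the high-affinity receptor for Vegfa, Vegfb and Pgf, was called with the smallest adjusted p of the members. Its level was 170, 124, 192 and 141 CPM in QZ1-hi libraries 1 to 4 and 38.9, 47.2, 42.7 and 50.3 CPM in QZ1-lo libraries 1 to 4. The lowest QZ1-hi library held over 100 CPM and no QZ1-lo library did. The QZ1-lo libraries were close together, with a coefficient of variation of 11.2% against 19.3% in QZ1-hi. The log2 fold change of Flt1 was 1.81 (SE 0.16, 95% interval 1.47 to 2.15, adjusted p = 1.44e-04), a 3.5-fold higher level in QZ1-hi.

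Kdr, the main signalling receptor for Vegfa on blood vessels, was also higher in QZ1-hi, with more spread between libraries. Kdr was at 133, 105, 192 and 78.5 CPM in the QZ1-hi libraries and at 13.9, 22.9, 39.9 and 10.6 CPM in the QZ1-lo libraries. The lowest QZ1-hi library lay well above the highest QZ1-lo library, so the groups did not overlap. Its coefficient of variation was 38.2% in QZ1-hi and 60.1% in QZ1-lo, above those of Flt1. The log2 fold change was 2.54 (SE 0.40, 95% interval 1.66 to 3.43, adjusted p = 0.00138), or 5.82-fold.

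**Figure D2:**
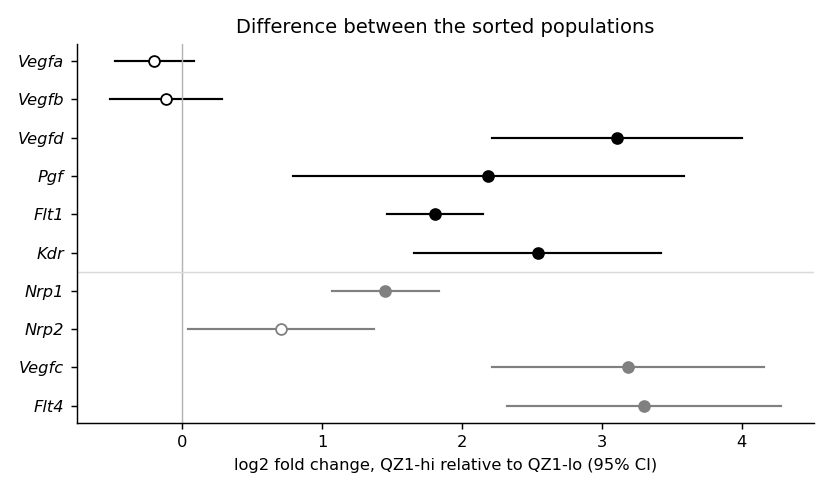
Log2 fold change of QZ1-hi relative to QZ1-lo (edgeR, 4 libraries each) with its unadjusted 95% interval for the 6 members and, for comparison, the co-receptors Nrp1 and Nrp2 and the lymphatic pair Vegfc and Flt4. Filled points passed an adjusted p under 0.05, and those of Vegfa (-0.20), Vegfb (-0.12) and Nrp2 (0.70) are open.

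When levels were divided by gene length, which is needed to set one gene beside another, Vegfa stood first in both populations. In QZ1-hi the order of CPM per kb of exonic sequence was Vegfa (50.6 ± 3.87), Kdr (14.1 ± 5.38), Flt1 (11.6 ± 2.24), Vegfb (9.51 ± 1.42), Vegfd (3.64 ± 1.06) and Pgf (1.06 ± 0.659), as mean and SD over 4 libraries. In QZ1-lo the order was Vegfa (58.1 ± 8.13), Vegfb (10.3 ± 1.87), Flt1 (3.31 ± 0.371), Kdr (2.42 ± 1.45), Vegfd (0.420 ± 0.218) and Pgf (0.231 ± 0.122). By their means both receptors stood above Vegfb in QZ1-hi and below it in QZ1-lo. The ranges of Kdr, Flt1 and Vegfb all overlapped in QZ1-hi, and in QZ1-hi library 4 both receptors (8.69 for Kdr and 10.4 for Flt1) were below Vegfb (11.3). In QZ1-lo the neighbours Flt1 and Kdr overlapped, as did Vegfd and Pgf. With the longest coding transcript as the length, an alternative added after the data were seen, Flt1 (22.7 ± 4.38) stood above Kdr (21.5 ± 8.2) in QZ1-hi and the other places did not move.

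Vegfa made up most of the summed ligand level per kb in both populations. Its share was 83.6, 76.7, 76.0 and 75.8% in QZ1-hi libraries 1 to 4 and 84.6, 81.1, 81.7 and 88.4% in QZ1-lo libraries 1 to 4. QZ1-hi library 1 lay inside the QZ1-lo range and the other 3 lay below it. The share of Vegfd was 5.66 ± 1.79% in QZ1-hi and 0.614 ± 0.308% in QZ1-lo, and that of Pgf was 1.66 ± 1.07% and 0.330 ± 0.152% (SD, n = 4). Vegfb held 14.7 ± 2.05% and 15.1 ± 3.20%.

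**Figure D3:**
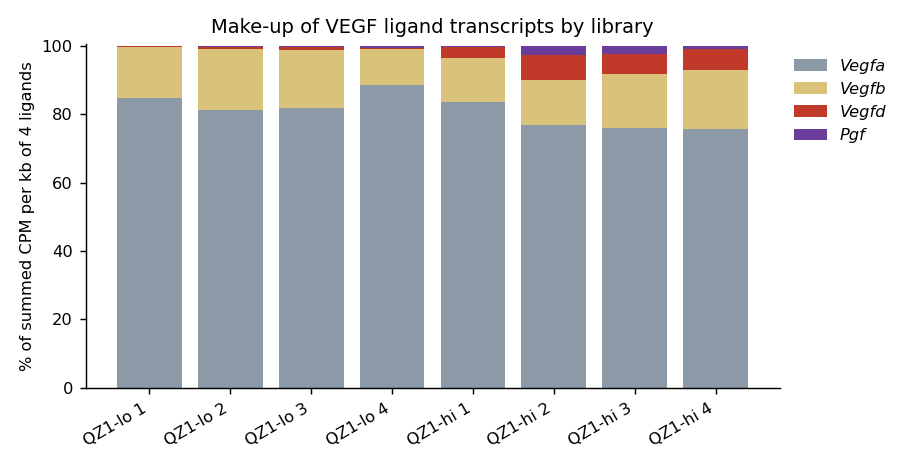
Share of each ligand in the summed CPM per kb of Vegfa, Vegfb, Vegfd and Pgf, in percent, as 1 stacked bar for each of the 8 libraries. Vegfa fills 75.8 to 88.4% of every bar, and the Vegfd segment is visible mainly in QZ1-hi (3.17 to 7.45%, against 0.352 to 0.976% in QZ1-lo).

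The receptors were next set against endothelial markers, since both are known in the cells that line vessels. All 10 endothelial markers tested were higher in QZ1-hi, their summed CPM spanned 1013 to 2390 in QZ1-hi and 87.3 to 309 in QZ1-lo, and none was at 0. The highest QZ1-lo value, 309, was in library 3, the library that also held the most Kdr of its population. In QZ1-lo the libraries ranked 4, 1, 2, 3 from low to high both in Kdr and in the mean log2 CPM of the markers (2.59, 3.01, 3.41 and 4.55). Flt1 did not follow that order, and stayed within 38.9 to 50.3 CPM. Its highest QZ1-lo value was in library 4, where the markers were lowest. Which cells held Flt1 in QZ1-lo was not tested.

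The log2 ratio of Kdr to the marker mean was -0.084, 0.431, 0.0497 and 0.0324 in QZ1-hi libraries 1 to 4 and 0.792, 1.11, 0.774 and 0.822 in QZ1-lo libraries 1 to 4. Every QZ1-lo value was above every QZ1-hi value, a difference of -0.768 log2 units between QZ1-hi and QZ1-lo (two-sided exact permutation p = 0.0286, the minimum for 4 against 4, adjusted over the 6 ratios 0.0857). The same ratio of Flt1 was 0.278, 0.667, 0.0471 and 0.873 in QZ1-hi and 2.27, 2.15, 0.871 and 3.07 in QZ1-lo. Here QZ1-hi library 4 and QZ1-lo library 3 met, and the difference was -1.62 log2 units (two-sided exact permutation p = 0.0571, adjusted 0.0857). Relative to these markers both receptors were therefore lower in QZ1-hi by their values, though none of the 6 ratios passed after adjustment. With the markers of general and aerocyte capillaries in place of the endothelial list, the difference was -0.301 for Kdr and -1.16 for Flt1.

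**Figure D4:**
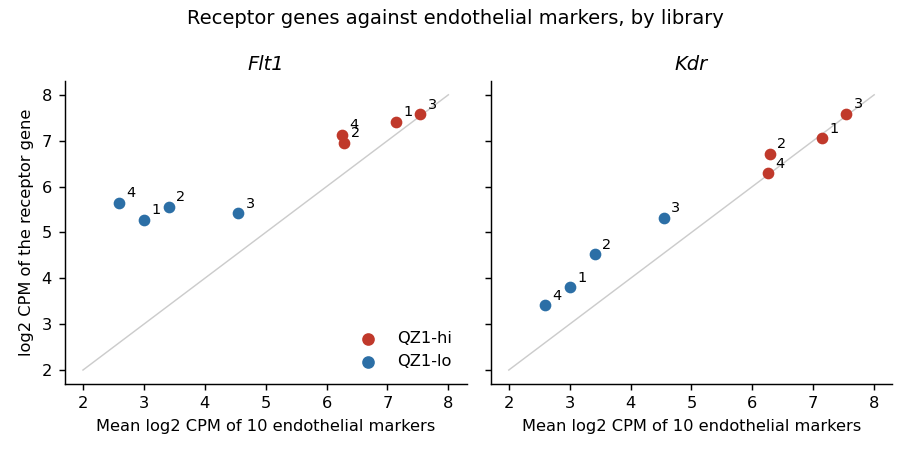
Log2 CPM of Flt1 and of Kdr against the mean log2 CPM of 10 endothelial markers, with 1 point per library and a grey line of equal values. Relative to the line, Kdr lies at -0.084 to 0.431 log2 units in QZ1-hi and at 0.774 to 1.11 in QZ1-lo. Flt1 in QZ1-lo stays nearly level as the markers go from 2.59 to 4.55.

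Between the receptors themselves, the log2 ratio of Flt1 to Kdr was 0.362, 0.236, -0.00261 and 0.840 in QZ1-hi libraries 1 to 4 and 1.48, 1.04, 0.0973 and 2.24 in QZ1-lo libraries 1 to 4. The QZ1-lo values were widely spread, and their lowest lay inside the QZ1-hi range. The difference between populations was -0.857 log2 units, which did not pass (two-sided exact permutation p = 0.143, adjusted 0.171). Per kb of exonic sequence, Flt1 made up 46.2 ± 6.09% of the receptor level in QZ1-hi and 60.2 ± 14.4% in QZ1-lo (SD, n = 4). These shares depend on the length used. With the longest coding transcript, the mean of Flt1 (22.7 CPM per kb) was above that of Kdr (21.5) in QZ1-hi.

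Vegfa was set against markers of alveolar epithelium. Of 6 alveolar type 1 markers, 4 were lower in QZ1-hi and 1 (Pdpn, which lymphatic endothelium and mesothelium also make) was higher, with summed CPM of 560 to 820 in QZ1-hi and 986 to 1214 in QZ1-lo. Of 7 alveolar type 2 markers, 2 were higher, and the sum spanned 6210 to 11427 in QZ1-hi and 4560 to 7177 in QZ1-lo. The log2 ratio of Vegfa to the type 1 markers averaged 1.43 ± 0.150 in QZ1-hi and 1.11 ± 0.213 in QZ1-lo (SD, n = 4 each; two-sided exact permutation p = 0.0571, adjusted 0.0857). To the type 2 markers it averaged -1.28 ± 0.254 and -0.654 ± 0.324, with no overlap (two-sided exact permutation p = 0.0286, adjusted 0.0857). All 4 general epithelial markers were lower in QZ1-hi (417 to 683 CPM summed, against 1181 to 1640). The part of these cell types in the Vegfa level was not tested, and a ratio to markers in bulk RNA does not measure it.

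The co-receptors and the lymphatic branch of the family were measured beside the members. Nrp1, a neuropilin that presents Vegfa to Kdr, was higher, with every QZ1-hi library (161 to 255 CPM) above every QZ1-lo library (59.9 to 87.0 CPM) and a log2 difference of 1.45 (SE 0.17, adjusted p = 3.97e-04). Nrp2, a neuropilin known in veins and lymphatics, ranged from 66.1 to 133 CPM in QZ1-hi and from 31.7 to 91.1 CPM in QZ1-lo. Its log2 fold change of 0.70 (SE 0.30) was not called (adjusted p = 0.147). Nrp2 passed only in the fit without QZ1-lo library 4 (adjusted p = 0.0478). Within each population Nrp2 was lowest in library 3, where the lymphatic markers summed highest (166 CPM in QZ1-hi, 15.6 CPM in QZ1-lo). The endothelial markers (2390 and 309 CPM) and the general capillary markers (1788 and 342 CPM) also summed highest there. The highest Nrp2 value was in library 4 of each population, where the blood cell markers summed highest (453 and 350 CPM). The red blood cell markers (1006 and 3097 CPM) also summed highest in library 4, so neither pattern was particular to 1 marker list. Which cells held Nrp2 was not tested.

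Vegfc, the other Flt4 ligand, was at 6.97 to 10.002 CPM in QZ1-hi and 0.409 to 1.59 CPM in QZ1-lo, a log2 difference of 3.19 (SE 0.44, adjusted p = 7.26e-04). Flt4 itself was at 19.2 to 33.4 CPM in QZ1-hi and 1.30 to 5.57 CPM in QZ1-lo, a log2 difference of 3.30 (SE 0.45, adjusted p = 6.29e-04), or 4.02 without QZ1-lo library 3. Both Flt4 ligands and Flt4 were thus higher in QZ1-hi, whereas of the Flt1 ligands Vegfa, Vegfb and Pgf only Pgf was called. Of 4 lymphatic markers, 3 were higher, with summed CPM of 63.7 to 166 in QZ1-hi and 3.46 to 15.6 in QZ1-lo, and their part in the Flt4 and Vegfc levels was not tested.

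Around the members, 103 further genes of the pathway were tested, grouped in lists by role. Of these, 31 (30.1%) were higher and 5 (4.85%) were lower in QZ1-hi, beside 9.88% and 8.21% of all genes. The calls were spread unevenly over the lists, and several lists hold genes that endothelium itself expresses, so the counts describe these libraries and no list was tested as a set.

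Transcription factors that act on VEGF receptor genes in endothelium were the pathway list with the most calls. Of these, 10 of 10 tested were higher, with a median log2 fold change of 2.89, against 0.02 over all genes. The endothelial markers also had 10 of 10 higher, with a median of 3.43. Sox7 (log2 fold change 3.51, SE 0.57), Gata2 (3.29, SE 0.52), the ETS factor Erg (3.29) and Sox18 (3.05) led the list. Gata2 was at 39.0 to 85.0 CPM in QZ1-hi and 2.27 to 12.955 CPM in QZ1-lo. The 11th listed factor, Etv2, which acts in the embryo, had too few reads to be tested. Without QZ1-lo library 3, the log2 fold changes of Sox7, Gata2, Erg and Sox18 were 4.55, 4.06, 3.93 and 3.66.

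Genes that VEGF induces in cultured endothelium were split. Of 14 tested, 6 were higher and 1 was lower, with a median of 0.27. Esm1, Rcan1, Egr3, Nr4a1, Nr4a2, Nr4a3 and Dusp5 were not called, with log2 fold changes from -0.48 to 0.42. The Notch ligand Dll4 was at 13.3 to 40.9 CPM in QZ1-hi and 1.22 to 3.84 CPM in QZ1-lo (log2 fold change 3.29, SE 0.44, adjusted p = 6.29e-04). Angpt2, a Tie2 ligand of sprouting vessels, was at 3.41 to 8.38 CPM and 0.244 to 1.04 CPM (2.93, SE 0.49). The metalloprotease Adamts1 (2.32) and the peptide gene Apln (2.06) were also higher, although Apln had an adjusted p of 0.0567 to 0.0594 when QZ1-hi 3, QZ1-lo 1 or QZ1-lo 2 was left out, and its log2 fold change was 2.78 without QZ1-lo 3. The 1 lower gene, named after its values were seen, was F3, tissue factor, which epithelium also makes. It fell by 1.70 on the log2 scale (SE 0.19), from 108 to 135 CPM in QZ1-lo to 27.3 to 50.2 CPM in QZ1-hi.

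Genes listed for VEGF receptor signalling were mostly not called, with 8 of 45 higher (17.8%), 4 lower (8.89%) and a median log2 fold change of 0.13. With scaling by library size only this balance turned, with 4 higher and 8 lower. Ptprb, the endothelial phosphatase VE-PTP, was at 320 to 560 CPM in QZ1-hi and 17.1 to 76.1 CPM in QZ1-lo, a log2 difference of 3.45 (SE 0.45, adjusted p = 5.61e-04), or 4.08 without QZ1-lo library 3. Ptprb also belongs to the general capillary markers used above. Nos3, endothelial nitric oxide synthase, differed by 3.01 log2 units (SE 0.44), and the kinase Fyn differed by 1.40 (SE 0.18). The 4 lower genes, named after their values were seen, were Src (-0.91, SE 0.17), the adaptor Shb (-0.81), Pik3cb (-0.71) and Mapkapk2 (-0.45).

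Hypoxia raises Vegfa in many tissues, and genes of that response were measured for this reason. Of 10 hypoxia factors, 1 was higher, Epas1, which encodes HIF-2α and is abundant in lung endothelium. Epas1 was at 820 to 1656 CPM in QZ1-hi and 195 to 365 CPM in QZ1-lo, a log2 difference of 2.01 (SE 0.27, adjusted p = 6.12e-04). Of 14 hypoxia target genes, 1 was higher, Adm, which encodes the vasodilator adrenomedullin and is also made by endothelium (log2 fold change 1.86, SE 0.44, adjusted p = 0.0129, and 0.0657 with scaling by library size only). Both counts are near the 9.88% of all genes that were higher. Of 6 VEGF antagonists, Thbs2, a thrombospondin (2.58, SE 0.36), and Vash1, vasohibin (1.84, SE 0.21), were higher. The others were not called, with log2 fold changes from -0.44 (Thbs1) to 0.91 (Vash2). Thbs1 was the most abundant of the 6, at a mean of 437 CPM in QZ1-hi and 591 CPM in QZ1-lo.

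**Figure D5:**
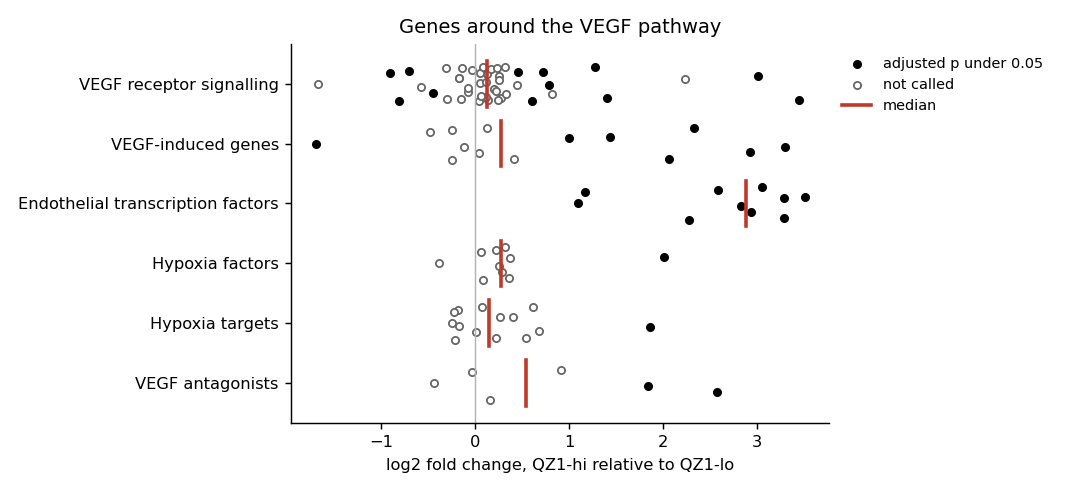
Log2 fold change of QZ1-hi relative to QZ1-lo for each tested gene of 6 pathway lists, with 1 point per gene, filled where the adjusted p was under 0.05, and a red line at each list's median. Of the lists shown, the endothelial transcription factors sit apart, with a median of 2.89. The medians of the others lie between 0.13 and 0.54.

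The genes whose profiles over the 8 libraries were closest to each member were found by the root mean square difference of mean-centred log2 CPM. For Kdr they were Csgalnact1 (0.186), Kitl (0.195) and Acvrl1 (0.205), against a median of 1.51 over all genes tested. For Flt1 they were Clec2d (0.151), Nav1 (0.172) and Arhgef3 (0.185), against 0.996, so the receptors had different nearest genes, and they differed from each other by 0.729. Acvrl1 encodes a receptor of bone morphogenetic proteins on endothelium, and Kitl encodes the ligand of Kit.

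For Vegfd the closest profiles were those of Zfp521 (0.354), Jcad (0.359) and Adamts2 (0.360), against a median of 1.70, and Kdr lay at 0.587. For Pgf they were Glt8d2 (0.291), Pdgfrl (0.455) and Axin2 (0.502), against 1.38. Jcad encodes a protein of endothelial junctions, and Adamts2 trims procollagen. The flat profiles of Vegfa and Vegfb lay 0.287 apart. Vegfa was nearest to Dync1li1 (0.0702), Ccdc186 (0.0823) and Elp5 (0.0846), against 0.438, and Vegfb to Atf1-ps (0.0930), Kmt5b (0.0991) and Carnmt1 (0.102), against 0.453. All profiles share the same 8 libraries and the difference between populations, so likeness over them is a description.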

How the data were processed

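The 8 libraries were made from total RNA of sorted cells with a stranded SMARTer kit and read on a NextSeq500. The authors counted reads per gene with Rsubread, and deposited these raw counts without normalization, on mm10 per the labels. The aligner, annotation and strand setting are not given in the sources used here, nor is pairing by mouse.

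Symbols were matched for 25275 of 27179 identifiers. The test used edgeR 4.0.16 in R 4.3.3 (TMM factors 0.660 to 1.35, filterByExpr with a minimum count of 10 and a minimum total of 15, quasi-likelihood test, common dispersion 0.113). P values were adjusted by Benjamini and Hochberg over 15583 genes at a threshold of 0.05. Each SE was obtained from the log2 fold change and the square root of its F statistic. Ratios were formed on log2 CPM with a prior count of 0.5 and compared by exact permutation over 70 assignments in scipy 1.17.1. The procedure was tested on simulated data.

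Lengths came from GENCODE M21 and promoters from RefSeq. No protein sequences were used here. Named genes were the members, the co-receptors, the lymphatic branch, up to 4 called genes per pathway list with the largest change, and the 3 nearest profiles per member. A result under this rule is not reported here. F3, the uncalled VEGF-induced genes, the 4 lower signalling genes, Etv2, Fli1, Pdpn, Tcf21, Thbs1 and Vash2 are outside this rule. The members and lists were chosen with earlier results of these data known. Alternatives were DESeq2 1.42.0, limma 3.58.1 (voom with quality weights), other scalings, filters and a stricter threshold, and each library left out in turn.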

Additional observations from a re-analysis of the deposited data

Results flagged for a closer look

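Values were examined in 32 groups of 4 libraries for a library that stood apart from the other 3, by the ratio of its gap to the whole range (Dixon's test at 95%). A pair of values passed, and chance passes about 1 group in 20. Flt4, the lymphatic VEGF receptor, was at 5.57 CPM in QZ1-lo library 3 and at 1.30 to 1.97 CPM in QZ1-lo libraries 1, 2 and 4 (ratio 0.844). The log2 ratio of Kdr to the endothelial markers was 1.11 in QZ1-lo library 2 and 0.774 to 0.822 in the other QZ1-lo libraries (ratio 0.857).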

How the results depend on the processing

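The calls of Flt1, Kdr and Vegfd and the lack of a call for Vegfa and Vegfb held in every alternative run, and 3 or 4 members were called in each. With libraries left out singly, log2 fold changes were 1.66 to 1.88 for Flt1, 2.26 to 3.01 for Kdr, 2.92 to 3.51 for Vegfd, -0.29 to -0.13 for Vegfa, -0.22 to -0.01 for Vegfb and 1.86 to 2.53 for Pgf. Pgf was not called under limma (2.16, adjusted p = 0.0791), with scaling by library size only (1.69, adjusted p = 0.0720) or at a threshold of 0.01 (2.19). Scaling by library size only moved the median of all genes to -0.44 and the calls from 1540 higher and 1280 lower to 882 and 2509. Relative to that median, the members were at 1.83 (Flt1), 2.58 (Kdr), 3.03 (Vegfd), 2.13 (Pgf), -0.22 (Vegfa) and -0.16 (Vegfb). Under it, 23 pathway genes were higher instead of 31 and 12 were lower instead of 5, and Vegfa and Vegfb were lower at an unadjusted p under 0.05 but not after adjustment, as was Vegfa without QZ1-lo library 2 (-0.29, adjusted p = 0.175). With DESeq2, 7 pathway genes were lower. The small differences of Atf1-ps (-0.1213 to 0.04591) and Carnmt1 (-0.1036 to 0.06987) changed sign with the library left out. Glt8d2 and Pdgfrl, near Pgf in profile, lost their calls in some of these fits. No paired analysis was possible because the labels give no number or mouse shared between the populations. Counts of 10 to 97 per library limit what can be said of Pgf, and 4 libraries per population limit the ratios, whose smallest exact permutation p is 0.0286.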
